A study of Mus musculus with 15 samples.

Results

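The neurofilament and neuronal tubulin genes of the mouse retina were followed through optic nerve crush (ONC) and acupuncture. They are 10 genes, chosen by symbol: the neurofilament subunits Nefl, Nefm, Nefh and Ina with the related filament gene Prph, and the tubulins Tubb3, Tubb2a, Tubb2b, Tuba4a and Tuba1a. All 10 were found among the 54532 genes of the count and FPKM tables, and all 10 passed the filter on low counts that left 19259 genes to be tested. The retinas came from C57BL/6 mice, labelled 5 weeks old (the methods give another age), in 5 groups of 3 libraries each. WT was intact retina. In the other 4 groups both optic nerves had been crushed with forceps behind the eyeball and the retina was taken 2 days later, with no needling in the group ONC. The needled mice had 3 treatments. The points were GB20 for ONC-F and BL1 for ONC-J, with GV16 as the sham point for ONC-S. Crush and needling were done under anesthesia, and the methods describe neither the needling at GV16 nor how many retinas went into a library. The methods give 3 mice a group and 3 repeats, so a library may pool mice. Replicates are therefore libraries. Each p-value sets a difference against the spread between libraries, which may not be the spread between mice.

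Neurofilaments are the intermediate filaments of neurons and are most abundant in large myelinated axons, where they set axon diameter. The light (Nefl), medium (Nefm) and heavy (Nefh) chains co-assemble with alpha-internexin (Ina), and the medium and heavy chains carry long tails that are phosphorylated in the axon. Peripherin (Prph), a filament protein best known from peripheral neurons, can join the same polymer and is not the photoreceptor protein peripherin-2. Microtubules are built from pairs of alpha-tubulin and beta-tubulin, each encoded by several genes called isotypes. Tubb3 encodes class III beta-tubulin, the antigen of the Tuj1 antibody and a common stain for retinal ganglion cells (RGCs). Tubb2a and Tubb2b encode class II beta-tubulins, Tuba1a is a main alpha-tubulin of neurons and Tuba4a encodes an alpha-tubulin whose gene lacks the codon for the final tyrosine. RGC axons form the optic nerve, and RGCs are a small minority of retinal cells, so a level in whole retina sums over many cell types. In such bulk samples, fewer cells of a type and less RNA per cell cannot be told apart.

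The beta-tubulin isotypes differ most in the stretch that encodes the acidic C-terminal tail, which bears on how far reads can be told apart. The last 60 coding bases before the stop codon are given for the 3 beta-tubulins of the set, read from the GENCODE transcripts of mm10, with capitals at the bases that were not matched to Tubb2a in a global alignment of the whole coding sequences. Tubb3 has 1350 coding bases and Tubb2a 1335, so their alignment holds gaps and the Tubb3 line does not match the others position by position.
Tubb2a, chr13:34074471-34074530, minus strand: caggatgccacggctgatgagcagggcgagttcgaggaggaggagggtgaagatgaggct
Tubb2b, chr13:34127474-34127533, minus strand: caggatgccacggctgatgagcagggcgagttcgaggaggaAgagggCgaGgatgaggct
Tubb3, chr8:123421620-123421679, plus strand: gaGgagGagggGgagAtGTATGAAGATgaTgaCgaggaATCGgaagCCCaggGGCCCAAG
In these alignments 3 of the 60 bases of Tubb2b and 31 of the 60 of Tubb3 were not matched to Tubb2a. Over the whole coding sequence Tubb2a and Tubb2b were 96.5% identical, and Tubb3 was 81.5% to 86.0% identical to the 6 other beta-tubulins compared. Of the 150-base windows of their transcripts, 27.9% of Tubb2a and 20.1% of Tubb2b occurred unchanged in another gene, so the split of reads between these neighbours on chromosome 13 is uncertain. For Tuba1a this share was 54.7%, mostly with Tuba1b and Tuba1c, to which its coding sequence was 98.3% and 97.1% identical, and with pseudogenes. The other 7 genes shared no such window.

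The genes also differ in what overlaps them on mm10. Nefl (chr14:68083863-68089095, plus strand) and Nefm (chr14:68082590-68124846, minus strand) overlap, with Nefl lying inside the span of Nefm on the opposite strand. A Nefm exon (68082590 to 68084970) covers most of the first exon of Nefl (68083863 to 68085009). The Nefm transcript used for the windows, Nefm-201 (3334 bases), does not hold that exon. The shared stretch is 1108 bases, or 32.8% of the exonic bases of Nefl and 19.2% of those of Nefm. Tuba4a (chr1:75214228-75219865, minus strand) shares 1379 exonic bases, 37.3% of its own, with Stk16 on the other strand, and Ina (chr19:47014698-47025327, plus strand) shares 456, or 14.1%, with Nt5c2. The strand setting of the counting is not given in the sources used here, so reads in these stretches cannot be told apart. Stk16 and Nt5c2 themselves gave log2 fold changes of -0.02 (SE 0.06) and 0.01 (SE 0.06) in ONC against WT. Nefh (chr11:4938754-4948064, minus strand), Tubb3 (chr8:123411424-123422015, plus strand), Tubb2a (chr13:34074274-34078007, minus strand), Tubb2b (chr13:34126748-34130466, minus strand) and Prph (chr15:99055174-99058978, plus strand) shared no exonic base with another gene. Tuba1a (chr15:98949837-98953703, minus strand) shared 473 bases, or 26.2%, with Gm49450 on its own strand.

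The libraries held 14482435 to 26112762 assigned fragments, with 18850893 to 24725003 in WT and 17154653 to 19885288 in ONC. Tuba1a had 4675 to 9249 counts per library, Nefl 2377 to 5889, Nefh 419 to 2293, Tubb2b 198 to 609 and Prph 31 to 125, so Prph was the least precisely counted. The 12 RGC markers used here summed to 654 to 703 CPM (TMM-scaled counts relative to library size) in WT and to 468 to 546 CPM in the 12 injured libraries. Markers of amacrine cells, the other common neurons of the ganglion cell layer, summed to 800 to 820 CPM in WT and 773 to 867 after injury. Of the 15 libraries, 3 stood apart. The WT replicate 1 held lens RNA (7 lens markers summed to 1917 CPM), ONC replicate 2 had the most Gfap, a filament of reactive glia (142 CPM, against 23.8 to 31.0 in WT), and ONC-F replicate 3 kept more RGC marker RNA (546 CPM) than any other injured library.

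Per length, the levels in WT ran from Tuba1a at the top to Prph at the bottom. In FPKM, fragments scaled by exonic length and library size, Tuba1a lay at 205 to 214 in the 3 WT libraries, Tubb2a at 91.8 to 96.2, Nefl at 68.0 to 70.9, Tubb3 at 51.0 to 54.1 and Ina at 30.1 to 31.9. Nefh (19.5 to 23.4), Nefm (19.4 to 21.9) and Tuba4a (18.03 to 19.71) overlapped with each other, while Tubb2b (5.70 to 8.84) and Prph (1.21 to 1.98) lay below. The level of Nefm rests on an exonic length of 5782 bases that includes the 2381-base exon shared in part with Nefl. Nefm-201 (3334 bases) lacks that exon, so the place of Nefm in this order is uncertain. After ONC the middle of this order opened up. Nefm (14.99 to 15.82 FPKM) lay above Tuba4a (13.51 to 13.99), and Nefh (7.88 to 10.5) fell below both, into the range of Tubb2b (6.12 to 14.9).

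ONC against WT asked how the intact retina and the retina 2 days after crush differed. Of the 10 genes, 8 fell and none rose, at an adjusted p under 0.05 in edgeR's quasi-likelihood test with Benjamini-Hochberg adjustment over all 19259 genes. Across all tested genes, 1.16% were called lower. The 10 genes were chosen with earlier results of these data known, so the excess over this share is not independent evidence. The same 8 genes had 3 ONC libraries that did not overlap the 3 WT libraries, which held in this direction for 8.92% of all genes. The largest falls were those of Nefh, to 43.0% of WT, and Tubb3, to 51.4%. Nefl, Ina, Tuba4a, Tubb2a and Nefm lay between 67.9% and 76.2%, Tuba1a at 85.0%, and Prph and Tubb2b did not pass the test. The median log2 fold change was -0.43 over the 10 genes and -0.00228 over all tested genes.

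**Figure D1:**
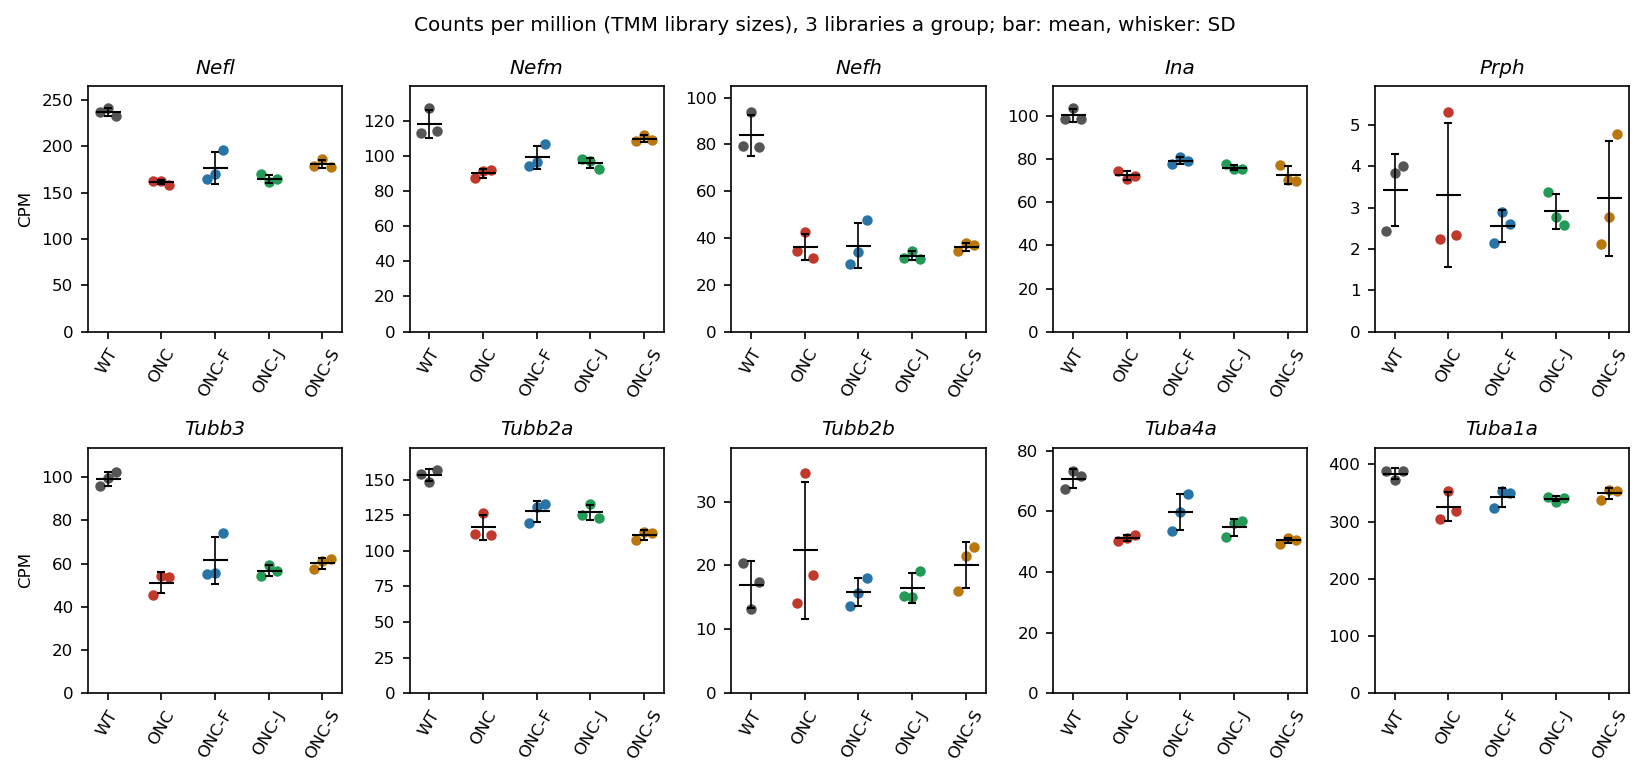
Level of each of the 10 genes in CPM (vertical axes, each from 0) in the 5 groups (horizontal axes). Points are single libraries, the horizontal bar is the mean and the whisker the SD of 3 libraries. The WT libraries of Nefh lay at 78.7 to 93.8 CPM and all 12 injured libraries at 29.0 to 47.5, while those of Prph and Tubb2b overlapped WT.

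Nefh, the heavy chain and the last of the 3 to appear in development, stood at 79.1, 93.8 and 78.7 CPM in WT replicates 1 to 3. It stood at 34.3, 42.4 and 31.6 CPM in ONC, at 29.0, 33.9 and 47.5 in ONC-F, at 31.5, 34.6 and 31.2 in ONC-J and at 34.3, 37.7 and 36.8 in ONC-S. Every injured library lay below every WT library, and the highest injured one was ONC-F replicate 3. In ONC against WT its log2 fold change was -1.22 (SE 0.13, 95% interval -1.49 to -0.95, adjusted p = 6.94e-06), and it was -1.18, -1.37 and -1.21 in ONC-F, ONC-J and ONC-S. Each of the 4 passed the test.

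Nefl, the light chain on which the polymer depends, was the most abundant subunit. It stood at 237.3, 241.0 and 232.9 CPM in WT and at 162.1, 162.4 and 158.6 in ONC. It stood at 164.5, 169.6 and 196.2 CPM in ONC-F, at 169.6, 161.0 and 164.7 in ONC-J and at 178.3, 185.8 and 177.7 in ONC-S. The groups ONC and ONC-J were tight and overlapped, and the ONC-S libraries all lay above both. Against WT the log2 fold change was -0.56 in ONC (SE 0.06, adjusted p = 2.8e-06), -0.42, -0.52 and -0.39 in ONC-F, ONC-J and ONC-S, and all 4 passed the test.

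Nefm is the medium chain. It stood at 113.1, 127.3 and 114.0 CPM in WT, at 87.2, 91.2 and 92.0 in ONC and at 94.1, 96.4 and 106.7 in ONC-F. It stood at 98.0, 96.8 and 92.8 CPM in ONC-J and at 108.3, 112.1 and 108.7 in ONC-S, so that ONC-S came closest to WT without overlapping it. Relative to WT the change was -0.39 on the log2 scale in ONC (SE 0.06, adjusted p = 0.000312), -0.25 in ONC-F and -0.30 in ONC-J. In ONC-S it was -0.11 (95% interval -0.23 to 0.01, adjusted p = 0.184), and Nefm was the one neurofilament gene among the 4 that fell in ONC that was not called there. The call in ONC-F was lost without WT replicate 2 (adjusted p = 0.132), ONC-F replicate 1 (0.147) or ONC-F replicate 2 (0.0933) and with the compared groups only (0.0682), over a range of 0.00404 to 0.147 in 14 alternatives.

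Ina, alpha-internexin, stood at 98.5, 103.8 and 98.8 CPM in WT and at 74.7, 70.6 and 72.3 in ONC. The remaining injured libraries ran from 70.0 in ONC-S replicate 3 to 81.2 in ONC-F replicate 2, all below WT. For Ina the log2 fold change was -0.47 in ONC (SE 0.05, adjusted p = 9.24e-06), -0.34, -0.40 and -0.47 in ONC-F, ONC-J and ONC-S, and each passed the test. Prph stayed at 2.13 to 5.32 CPM after injury and at 2.44 to 4.01 in WT, and the groups overlapped. Its log2 fold change in ONC was -0.06 (SE 0.31, adjusted p = 0.975). The 95% interval ran from -0.72 to 0.59, so the data do not exclude a change of either sign within it. Its sign turned when WT replicate 2 or 3 or ONC replicate 1 or 3 was left out. The highest Prph value, 5.32 CPM, was that of ONC replicate 2, the library with the most Gfap, and without that library the log2 fold change was -0.58 (adjusted p = 0.687, range over 14 alternatives 0.687 to 1).

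Tubb3 was the tubulin that fell most. It stood at 96.0, 99.7 and 102.3 CPM in WT and at 45.4, 54.3 and 53.6 in ONC. It stood at 55.1, 55.5 and 74.1 CPM in ONC-F, at 54.1, 59.3 and 56.6 in ONC-J and at 57.3, 61.2 and 62.2 in ONC-S. All injured libraries lay below WT, and ONC-F replicate 3 was again the highest of them. For Tubb3 the log2 fold change was -0.96 in ONC (SE 0.09, 95% interval -1.15 to -0.77, adjusted p = 1.56e-06), -0.69, -0.81 and -0.72 in ONC-F, ONC-J and ONC-S, each past the test.

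Tubb2a stood at 153.8, 148.6 and 156.8 CPM in WT and at 111.4, 126.8 and 111.1 in ONC. It stood at 119.5, 130.7 and 132.8 CPM in ONC-F, at 124.9, 132.9 and 123.2 in ONC-J and at 107.4, 113.5 and 112.6 in ONC-S. The 3 ONC-S libraries lay below all those of ONC-F and ONC-J. The log2 fold change against WT was -0.39 in ONC (SE 0.06, adjusted p = 0.000334), -0.26, -0.27 and -0.46 in ONC-F, ONC-J and ONC-S. All 4 passed the test, but the call in ONC-F was lost without WT replicate 1 (adjusted p = 0.0692), WT replicate 3 (0.0802) or ONC-F replicate 1 (0.145), over a range of 0.00191 to 0.145 in 14 alternatives.

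Its close copy Tubb2b, the class II isotype better known from developing neurons, showed no such fall. It stood at 20.4, 13.1 and 17.5 CPM in WT, at 14.1, 34.5 and 18.5 in ONC and at 13.7 to 22.9 in the needled groups, with the groups overlapping. Its log2 fold change in ONC was 0.39 (SE 0.23, adjusted p = 0.598), and it turned to -0.06 (adjusted p = 0.98) without ONC replicate 2. Over the 14 alternatives the adjusted p ran from 0.0074 to 0.98, the lowest being the fit with no filter on low counts. The same library held 12.8 CPM of Tubb6, a beta-tubulin found in many cell types, against 3.55 to 7.96 CPM in all others. Its microglia and macrophage markers were also the highest (0.85 above WT in mean log2 CPM), and the part of these differences in the Tubb2b value was not tested.

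Tuba4a stood at 67.3, 73.3 and 71.6 CPM in WT and at 50.3, 51.1 and 52.1 in ONC. It stood at 53.7, 59.7 and 65.6 CPM in ONC-F, at 51.5, 56.02 and 56.7 in ONC-J and at 49.4, 51.2 and 50.7 in ONC-S. ONC and ONC-S lay together, and ONC-F lay between them and WT. The log2 fold change was -0.47 in ONC (SE 0.07, adjusted p = 0.000183), -0.37 in ONC-J and -0.49 in ONC-S, all past the test. In ONC-F it was -0.24 (95% interval -0.38 to -0.11, adjusted p = 0.0593) and was not called, and without ONC-F replicate 3 it was -0.32 (adjusted p = 0.0101). With DESeq2 it was called too (adjusted p = 0.033).

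Tuba1a stood at 389.3, 372.3 and 388.8 CPM in WT and at 304.7, 353.8 and 319.0 in ONC, the smallest relative fall of the 8. The remaining injured libraries lay between 323.5 and 355.5 CPM, below all WT libraries. The log2 fold change was -0.24 in ONC (SE 0.05, adjusted p = 0.0216), and it was -0.16, -0.17 and -0.13 in ONC-F, ONC-J and ONC-S, none of which passed the test (adjusted p of 0.154, 0.0851 and 0.0777). The call in ONC was lost in 5 of 14 alternatives, over adjusted p of 0.000888 to 0.12, among them the fits without WT replicate 1, WT replicate 3, ONC replicate 1 or ONC replicate 3.

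**Figure D2:**
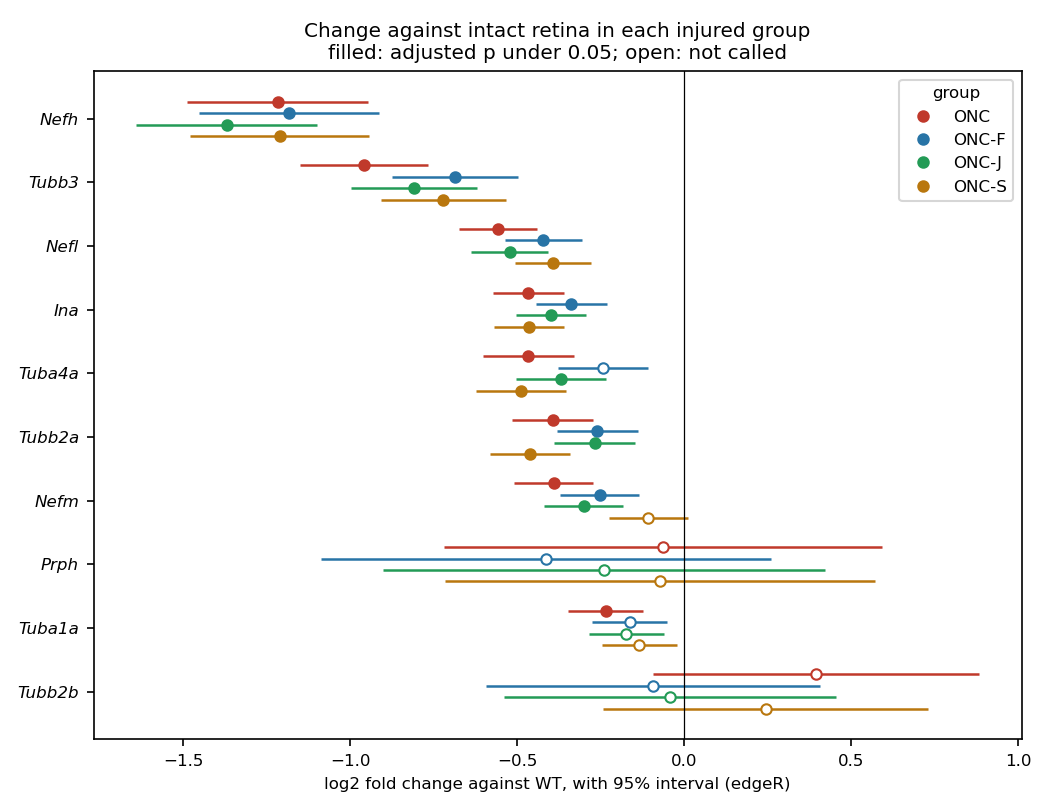
Log2 fold change of each gene against WT (horizontal axis) in the 4 injured groups, with 95% intervals from the edgeR fit and genes ordered by their mean change (vertical axis). Filled points passed an adjusted p under 0.05, and open ones did not. Nefh lay at -1.37 to -1.18 in the 4 groups, Tubb3 at -0.96 to -0.69, and the intervals of Prph and Tubb2b crossed 0.

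The needled groups were compared with the same WT libraries. Against WT, 6 of the 10 genes fell in ONC-F, where 0.981% of all tested genes were called lower, 7 fell in ONC-J (1.76% of all) and 6 fell in ONC-S (11.7% of all), and none rose. Because these comparisons share their WT libraries, they are not separate evidence. With the 4 injured groups averaged, 8 genes fell (4.15% of all), led by Nefh at 42.2% of WT (log2 fold change -1.25, SE 0.09, adjusted p = 3.09e-08) and Tubb3 at 57.7% (-0.79, SE 0.07, adjusted p = 1.55e-07). For these 8 genes all 12 injured libraries lay below all 3 WT libraries, which was so for 2.52% of the tested genes. Leaving out WT replicate 1, the library with lens RNA, kept Nefh, Nefl, Nefm, Ina, Tubb3, Tubb2a and Tuba4a called in ONC (Nefh -1.26, Tubb3 -0.98), and ended the call of Tuba1a.

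The make-up of each family was described from FPKM. Among the neurofilament subunits, Nefh made up 14.03%, 15.58% and 13.99% of the summed FPKM in WT and 7.46% to 10.7% after injury, with no overlap. Nefm made up 14.2% ± 0.4 (SD, n = 3) in WT and 16.9% ± 0.8 (SD, n = 12), its lowest injured value (15.7%) lying above its highest in WT (14.6%). Nefl held 48.7% ± 1.2 (SD, n = 3) in WT and 49.9% ± 0.8 (SD, n = 12) after injury, with overlap. In FPKM, the ratio of Nefh to Nefl was 0.282 to 0.330 in WT and 0.149 to 0.221 in the 12 injured libraries. The ratio of Nefm to Nefl was 0.279 to 0.309 in WT, 0.314 to 0.352 in ONC, ONC-F and ONC-J, and 0.353 to 0.358 in ONC-S. The FPKM of Nefm rests on 5782 exonic bases, part of them shared with Nefl, while Nefm-201 has 3334. The size of each neurofilament share, and of the ratio of Nefm to Nefl, therefore depends on the length taken for Nefm. These shares and ratios are descriptions without a test.

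Among the beta-tubulins, Tubb3 supplied 13.3%, 13.3% and 13.8% of the summed FPKM in WT and 7.80% to 11.3% after injury. Tubb5, the isotype that most cells use, held 26.3% ± 0.9 (SD, n = 3) in WT and 31.4% ± 1.4 (SD, n = 12) after injury, and its own level did not pass the test in ONC against WT (log2 fold change -0.01, SE 0.08, adjusted p = 0.989). In FPKM, the ratio of Tubb3 to Tubb5 was 0.487 to 0.528 in WT and 0.244 to 0.396 after injury, and that of Tubb3 to Tubb2a 0.538 to 0.578 and 0.351 to 0.481. Neither ratio overlapped between WT and injured libraries. Among the alpha-tubulins, Tuba1a kept 51.5% ± 0.7 (SD, n = 3) of the summed FPKM in WT and 50.5% ± 1.5 (SD, n = 12) after injury, with overlap. Shares of Tuba1a, Tubb2a and Tubb2b carry the uncertainty of reads from near-identical copies.

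**Figure D3:**
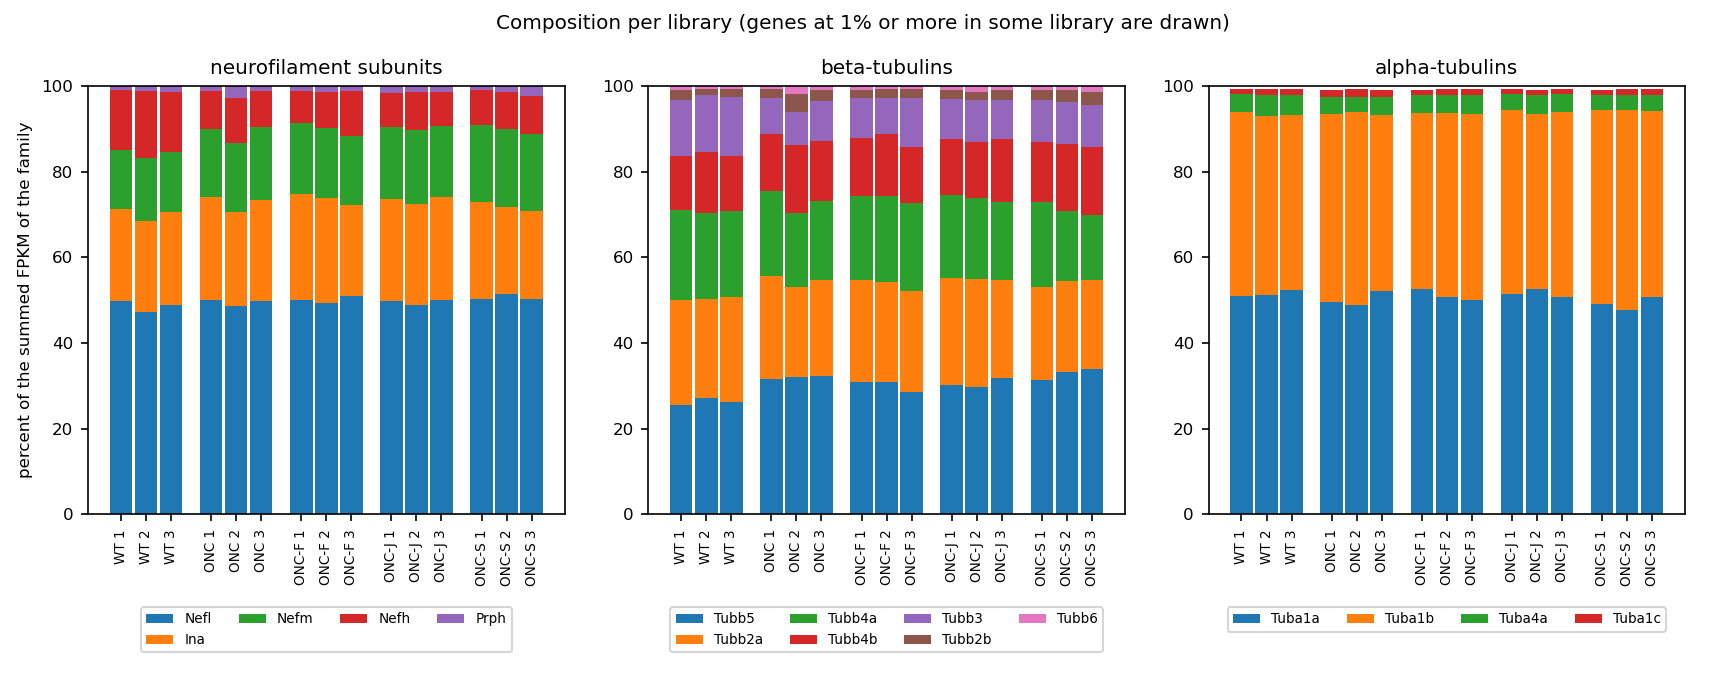
Share of each gene in the summed FPKM of its family (vertical axis, percent) in each of the 15 libraries (horizontal axis), for the neurofilament subunits, the beta-tubulins and the alpha-tubulins. Each bar is 1 library, and genes under 1% in all libraries are not drawn. The Nefh band narrowed from 13.99% or more in WT to 10.7% or less after injury, and the Tubb3 band from 13.3% or more to 11.3% or less.

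The genes around these families were taken from lists, again in ONC against WT. Of the 15 other tubulin genes listed, 11 were tested and 1 fell, Tubb4a, a class IV beta-tubulin of neurons and oligodendrocytes (log2 fold change -0.44, SE 0.07, adjusted p = 0.000731), and none rose. None of 13 other intermediate filament genes and none of 21 genes for tubulin folding (chaperonin, prefoldin and tubulin cofactors) passed the test. Of 22 tested tubulin modifying enzymes 1 fell, Ttll7, a polyglutamylase of beta-tubulin (-0.23, SE 0.05, adjusted p = 0.0278). Of 19 genes whose products bind, phosphorylate or degrade neurofilaments, Capn2 rose (0.29, SE 0.07, adjusted p = 0.0425) and Capn1 fell (-0.55, SE 0.13, adjusted p = 0.0322), both subunits of the calcium-activated proteases called calpains. With the 4 injured groups averaged, 4 other filament genes passed the test, named here after their values were seen. Gfap (1.17, SE 0.33) and Lmna, a nuclear lamin (0.60, SE 0.14), rose. The lens filament genes Bfsp1 (-1.97) and Bfsp2 (-2.65) were called lower, on 1 library. Bfsp2 stood at 8.82 CPM in WT replicate 1, which carried lens RNA, at 0.25 and 0.42 in the other WT libraries and at 0.19 to 1.29 after injury. Bfsp1 stood at 6.38 CPM in WT replicate 1, at 0.65 and 0.95 in the others and at 0.34 to 1.56 after injury, so that without replicate 1 WT and injured libraries overlapped for both.

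The RGC markers gave a scale for these falls. Of 12 markers, 9 fell in ONC against WT and none rose, with a median log2 fold change of -0.86, and the same count held with the 4 injured groups averaged (-0.88). Sncg, gamma-synuclein, fell by 1.43 on the log2 scale (SE 0.12) and Pou4f2, a transcription factor of RGCs, by 1.88 (SE 0.24). The 3 that did not pass, named after their values were seen, were Jam2 (-0.07), Pou4f3 (-0.50) and Slc17a6, a vesicular glutamate transporter (0.14). The amacrine, bipolar, rod, cone, pigment epithelium and oligodendrocyte lists and those of microglia and of Mueller glia and astrocytes had no called gene in ONC, and the horizontal cell list had 1, Calb1 (-0.37, SE 0.07).

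The neurofilament genes were also set beside the RGC markers. For each library the mean log2 CPM of Nefl, Nefm, Nefh and Ina was set beside that of the 12 RGC markers, both relative to the WT mean. The injured libraries lay at -0.70 to -0.39 for the neurofilament mean and at -1.05 to -0.47 for the RGC marker mean. The neurofilament mean minus the marker mean was -0.04 to 0.04 in WT, 0.16 to 0.23 in ONC, 0.08 to 0.24 in ONC-F, 0.12 to 0.26 in ONC-J and 0.39 to 0.50 in ONC-S. The ONC-S libraries had marker means of -1.05 to -0.91 and neurofilament means of -0.56 to -0.52, and their differences lay above those of all others. ONC-F replicate 3 was the highest injured library on both means (-0.39 and -0.47). Nefh alone lay further below WT than the marker mean in all 12 injured libraries (-1.28 against -0.88 in ONC replicate 1, -0.81 against -0.47 in ONC-F replicate 3). No p is given for these means.

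**Figure D4:**
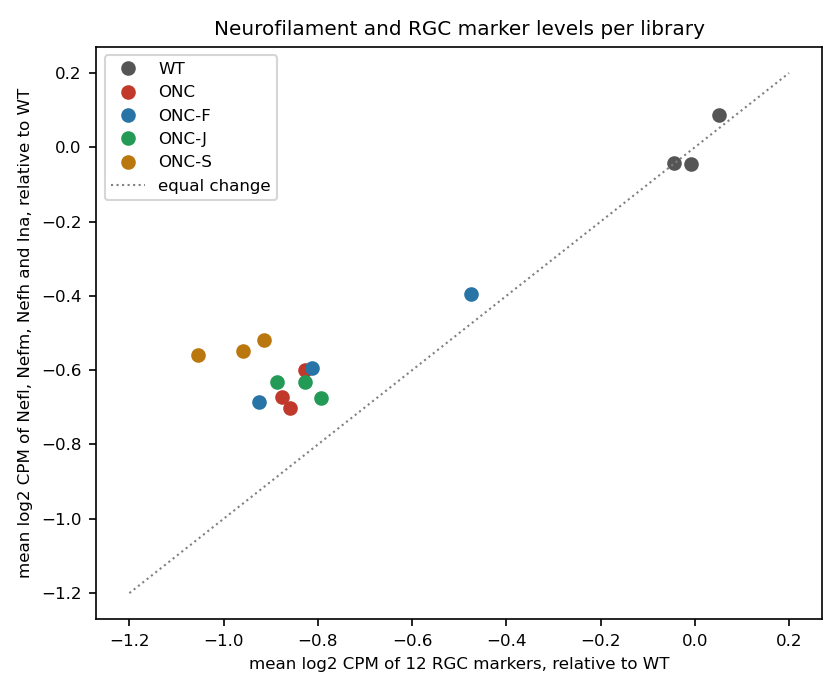
Mean log2 CPM of Nefl, Nefm, Nefh and Ina (vertical axis) against that of 12 RGC markers (horizontal axis), each relative to the WT mean, with 1 point per library and the dotted line marking equal change. The 12 injured libraries lie above the line, by 0.08 to 0.50, and the 3 ONC-S libraries by 0.39 to 0.50.

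Needling at GB20 (ONC-F) and at BL1 (ONC-J) was compared with ONC alone to ask whether treatment moved these genes. None of the 10 was called in either comparison by edgeR, in which 0.00519% and 0.125% of all tested genes were called. In ONC-F, 6 of the 10 had an unadjusted p under 0.05 (8.15% of all tested genes), all with higher means in ONC-F. These were Tuba4a (0.22, SE 0.07, adjusted p = 0.358), Tubb3 (0.27, SE 0.09, adjusted p = 0.443), Ina, Nefl and Nefm (0.13 to 0.14, adjusted p from 0.51 to 0.545) and Tubb2a (0.13, adjusted p = 0.568), none past the correction. Without ONC-F replicate 3, the library with the most RGC marker RNA among the injured, the difference was 0.12 for Tubb3, 0.05 for Nefl, 0.08 for Nefm, 0.15 for Tuba4a and -0.19 for Nefh (0.03 with it), and of the 6 only Ina and Tuba4a kept an unadjusted p under 0.05. In ONC-J the only one with an unadjusted p under 0.05 (8.33% of all) was Tubb2a (0.13, adjusted p = 0.584). For Nefh the 95% interval of the difference from ONC was -0.25 to 0.31 in ONC-F and -0.43 to 0.13 in ONC-J. DESeq2 called none of the 10 in these comparisons either. The fit with no filter on low counts called Tubb3 (higher) and Tubb2b (lower) in ONC-F and Tubb2b (lower) in ONC-J. Of the 36096 genes in that fit, 152 were called higher and 184 lower in ONC-F, and 232 and 124 in ONC-J.

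In ONC-S against ONC, 1 of the 10 genes rose and none fell, which is near the 7.6% of all tested genes called higher. This gene was Nefm, higher in 3 of 3 libraries (log2 fold change 0.28, SE 0.06, adjusted p = 0.0024). Nefl (0.17, SE 0.06, adjusted p = 0.0513) and Tubb3 (0.24, SE 0.09, adjusted p = 0.0919) did not pass, although their 3 ONC-S libraries lay above all ONC libraries, as they did for 16.5% of all tested genes. Ina (0.00, 95% interval -0.10 to 0.11) and Nefh (0.01, 95% interval -0.27 to 0.28) lay near 0. Comparisons with ONC-S called 14.5% (with ONC), 14.6% (with ONC-F) and 12.9% (with ONC-J) of all tested genes in either direction. The sample numbers of ONC-S stand apart from those of the other groups. The methods do not say whether its libraries were prepared with the rest. In comparisons with ONC-S, needling point and a possible batch therefore cannot be told apart. In the same comparison 6 of the 19 neurofilament partner genes rose and 2 fell, a count that includes no gene called in ONC against WT. Cell type markers were called there too, with 3 of 8 rod, 1 of 8 amacrine and 1 of 12 RGC markers higher, and 3 of 7 cone and 2 of 7 bipolar markers lower, and their part in the Nefm difference was not tested.

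Among the needled groups, ONC-S differed from ONC-F in 2 genes, both lower, where 7.03% of all tested genes were called lower. They were Tubb2a (-0.20, SE 0.06, adjusted p = 0.0248) and Tuba4a (-0.25, SE 0.07, adjusted p = 0.0161). Both calls were lost without ONC-F replicate 3 (adjusted p of 0.101 and 0.102), when Nefm was called higher instead (0.20, adjusted p = 0.0362). The call of Tubb2a was also lost without ONC-F replicate 2 (0.0882) or ONC-S replicate 1 (0.0734), over a range of 0.0134 to 0.101 in its 14 alternatives, and that of Tuba4a ranged from 0.00353 to 0.102. ONC-S differed from ONC-J by a higher Nefm (0.19, SE 0.06, adjusted p = 0.0301) and a lower Tubb2a (-0.19, SE 0.06, adjusted p = 0.0338), where 6.62% and 6.28% of all tested genes were called higher and lower. Tubb2a was not called when any of the 6 ONC-J and ONC-S libraries was left out (adjusted p up to 0.124), and Nefm was called only without ONC-J replicate 1 (0.0469) among these 6 (range over all 14 alternatives 0.0185 to 0.126).

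The upstream sequence of 6 of the 10 genes was at hand from RefSeq (GRCm38.p6), as 300 bases around the start. It was searched on both strands for 5 short motifs. TATAAA, the core of a TATA box, occurred in Tubb2a and Prph (13.62% of all 32851 promoters), and TGACGTCA, the cAMP response element, in Tubb2a alone (1.79%). CCAAT occurred in Tubb3 and Tuba1a (37.41%), GGGCGG in all 6 (35.66%) and TGANTCA, the AP-1 motif, in none (7.81%). Tubb3, Tubb2a and Prph are shown as the beta-tubulin that fell most, a class II isotype that fell less and a filament gene that did not pass the test, with capitals at TATAAA and TGACGTCA on either strand.
Tubb3, chr8:123411303-123411602, plus strand: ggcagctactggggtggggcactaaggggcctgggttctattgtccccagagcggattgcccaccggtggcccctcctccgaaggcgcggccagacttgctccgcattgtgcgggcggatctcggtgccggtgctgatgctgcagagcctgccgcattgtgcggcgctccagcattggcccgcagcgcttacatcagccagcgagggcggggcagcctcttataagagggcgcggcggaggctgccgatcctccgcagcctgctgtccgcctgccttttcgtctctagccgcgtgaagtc
Tubb2a, chr13:34077959-34078258, minus strand: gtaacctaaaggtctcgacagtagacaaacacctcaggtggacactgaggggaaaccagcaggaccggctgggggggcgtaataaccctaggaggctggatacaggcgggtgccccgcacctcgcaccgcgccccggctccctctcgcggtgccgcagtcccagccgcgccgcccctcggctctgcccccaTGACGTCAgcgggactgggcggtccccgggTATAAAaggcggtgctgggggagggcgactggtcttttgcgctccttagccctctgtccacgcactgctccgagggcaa
Prph, chr15:99054924-99055223, plus strand: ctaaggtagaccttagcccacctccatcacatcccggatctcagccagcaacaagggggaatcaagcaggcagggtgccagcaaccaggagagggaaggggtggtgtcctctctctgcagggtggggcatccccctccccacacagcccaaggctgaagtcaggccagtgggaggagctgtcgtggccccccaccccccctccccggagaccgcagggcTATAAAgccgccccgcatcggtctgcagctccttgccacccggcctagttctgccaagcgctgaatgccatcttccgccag
Of these 6 genes only Prph was not called in ONC against WT, so the motifs cannot be set against the change. Near matches to a motif were not counted. A match is a description of letters, and RefSeq promoters of Nefl, Nefm, Nefh and Tubb2b were not used here.

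The genes whose pattern over the 15 libraries was most like each member were found by Pearson correlation of log2 CPM, as a description with no p, since the libraries share the step between WT and injury. Nefh followed Tppp3, a tubulin polymerization promoting protein (r = 0.974), and Scn4b, a sodium channel subunit (0.965). Tubb3 followed Cdk14 (0.965), Trarg1 (0.964) and Tppp3 (0.963), and Nefl followed Trarg1 (0.968), Calb2, the calcium-binding protein calretinin (0.962), and Cdk14 (0.95). In ONC against WT, Trarg1 fell by 1.65 on the log2 scale (SE 0.17) and Tppp3 fell by 1.46 (SE 0.15). Ina and Tuba4a both had Cplx1, a complexin of synapses, as their nearest gene (0.949 and 0.953). Nefm was closest to Rab11fip4 (0.936), Tubb2a to Irx2 (0.932) and Tuba1a to Scn2b (0.852). The 2 genes that did not fall had other neighbours, Tubb2b with S100a11 (0.881) and Slc1a3, the glutamate transporter of Mueller glia (0.878), and Prph with Cyp1b1 (0.852). The highest values of Tubb2b (34.5 CPM), Prph (5.32) and Slc1a3 (224) were all those of ONC replicate 2, so these correlations may lean on that library.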

How the data were processed

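RNA was measured in 15 retinal libraries, 3 in each of 5 groups taken from the labels. Poly-A libraries were read from both ends and aligned by the authors to mm10 (HISAT2 2.0.5), and they deposited count values per gene without normalization. FPKM values were derived by the authors from count and gene length. The strand setting and annotation release are not given in the sources used here. GENCODE M21 exons gave the overlaps and sequences.

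Counts were filtered with filterByExpr (minimum count 10, minimum total 15) and fitted in edgeR 4.0.16 by the quasi-likelihood test over all 15 libraries (TMM factors 0.966 to 1.03, 10 residual degrees of freedom). Each p was adjusted by Benjamini-Hochberg over the 19259 genes tested, which hold 99.84% to 99.89% of the counts, and called under 0.05. CPM use TMM library sizes. SE is the log2 fold change divided by the root of F. Libraries of a group differed by more than sampling noise (chi-square of 2.95 to 8.25 per degree of freedom).

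The 10 genes and the gene lists were chosen with earlier results of these data known. The text names all 10, up to 4 called genes of each other list by p in ONC against WT, at most 2 markers of each other cell type, and the nearest genes by correlation. The alternatives were DESeq2 1.42.0, RLE size factors, no filter on low counts, the compared groups only, limma 3.58.1 with voom and sample weights or on log2(FPKM + 1) and log2(FPKM + 0.1), a replicate block, and leaving out each library. The fit was tested on simulated data before use. R 4.3.3 and Python 3.11.15 were used.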

Additional observations from a re-analysis of the deposited data

Results flagged for a closer look

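In all, 4 differences between needled groups under the same injury passed the test of the difference itself. In ONC-S against ONC-F, the log2 fold change was -0.2 for Tubb2a and -0.25 for Tuba4a, each lower in 3 of 3 ONC-S libraries than in any ONC-F library. In ONC-S against ONC-J it was -0.19 for Tubb2a and 0.19 for Nefm, each with 3 libraries that did not overlap the other 3. Across all tested genes, 14.6% were called in either direction in ONC-S against ONC-F and 12.9% in ONC-S against ONC-J, and the groups did not overlap for 29.9% and 29.5%, so 2 called genes of 10 in each comparison are near these shares. Each of these calls was lost when some 1 library was left out, ONC-F replicate 3 for both in the first comparison. Needling point and a possible batch of ONC-S cannot be told apart in them.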

How the results depend on the processing

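In ONC against WT, Nefl, Nefm, Nefh, Ina, Tubb3, Tubb2a and Tuba4a kept direction and call in all 14 alternatives (Nefh -1.35 to -1.13, Tubb3 -1.01 to -0.88, Nefl -0.57 to -0.54). Tubb2b turned to -0.061 without ONC replicate 2, with a range of -0.061 to 0.644 when 1 library was left out, and Prph ranged from -0.58 to 0.159, above 0 without WT replicate 2 or 3 or ONC replicate 1 or 3. In ONC-S against ONC, where edgeR called 1 gene, Nefm, DESeq2, RLE size factors, log2(FPKM + 1) and log2(FPKM + 0.1) called 2, Nefm and Nefl. No low-count filter, the compared groups only and limma-voom called 3, adding Tubb3. Across these settings 1369 to 1876 genes were called higher, of 14875 to 36096 tested. Without the filter, 2 genes were called in ONC-F against ONC (Tubb3 higher, Tubb2b lower) and 1 in ONC-J against ONC (Tubb2b lower). Of the 36096 genes tested there, 152 were called higher and 184 lower in ONC-F, and 232 and 124 in ONC-J. With the filter these counts were 1 and 0 in ONC-F and 20 and 4 in ONC-J. The cause was not tested. Leaving out 1 library gave against WT 7 to 8 called genes in ONC, 4 to 7 in ONC-F, 7 in ONC-J, 6 in ONC-S and 7 to 8 in the injured groups averaged, 1 in ONC-S against ONC, 1 to 2 in ONC-S against ONC-F and 0 to 1 in ONC-S against ONC-J. The averaged injured groups could not be fitted with the compared groups only, since all 15 libraries enter. Shares taken from counts in place of FPKM moved by more than 1 SD in 26 cases, as gene length then enters.

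Replicate numbers recur across the groups, and the methods mention 3 repeats of the experiment, but neither they nor the labels say that a number marks the same repeat in every group. Deviations of same-numbered libraries correlated at -0.0909 to 0.182 (median 0.0266, 3 of 30 pairs over 0.1) and those of differently numbered ones at -0.157 to 0.2 (median -0.0184, 3 of 60 over 0.1). Of the 15 libraries, 8 correlated best with one of their own number, a hint from the data and not the design. With the replicate number as a block, 2 genes were called in ONC-S against ONC (Nefm and Tubb3) and Tuba4a was called in ONC-F against WT (adjusted p = 0.0184), and no other call of the 10 genes changed.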
